A study of Mus musculus with 6 samples.

Results

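The 10 genes Ifit1, Ifit2, Ifit3, Isg15, Irf7, Oasl2, Usp18, Rsad2, Ifi27 and Bst2 encode antiviral proteins that are induced mainly by type I interferon. They were chosen by gene symbol from a table of 24346 mouse gene symbols, and all 10 were present. The kidneys of C57BL/6 mice were compared in 2 groups of 3 RNA-seq libraries each: kidneys after the surgery that the labels call IVCC, and kidneys after Sham surgery. What IVCC stands for is not spelled out in the labels, which also give no age, sex or time after surgery, and leave it unsaid whether each replicate was its own animal. The p-values below therefore reflect variation among these 6 libraries, which may be technical. The series concerns renal congestion, the backing up of venous blood in the kidney, and the comparison asks how gene expression differs after IVCC.

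Type I interferons, the alpha and beta interferons, are secreted when a cell's sensors meet viral or misplaced nucleic acid. They bind the receptor made of Ifnar1 and Ifnar2, whose kinases Jak1 and Tyk2 switch on a transcription factor complex that includes Stat2 and Irf9. The complex binds the interferon-stimulated response element in the promoters of the antiviral genes. In the kidney, tubular, endothelial and myeloid cells can all mount this response.

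The labelled tissue was borne out by its defining transcripts. The proximal tubule gene Slc34a1 lay between 2377 and 2576 FPKM in IVCC kidneys and between 2131 and 2258 FPKM in Sham (FPKM, read counts divided by transcript length and by the size of the library). The thick ascending limb gene Umod was at 842 FPKM or more in every library. Read totals are not part of FPKM values; estimated from the spacing of the low values, they were nominally 8240000 to 9190000 in the IVCC libraries and 6150000 to 7220000 in the Sham libraries. On that scale the 10 genes rested on 15 to 354 reads per library, for which counting error alone is 25.8% at the low end and 5.31% at the high end. That error assumes independent reads and takes in no other source of variation. In whole kidney RNA, fewer cells of a type and less RNA per cell cannot be told apart.

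RefSeq promoter windows (GRCm38.p6, 250 bases before to 50 after the start site) were given for 8 of the 10 genes. The core of the response element was searched on both strands as GAAA, 2 bases of any kind and GAAA again; on the other strand it reads TTTC, 2 bases and TTTC. It occurred in 5 of the 8 genes, which is 62.5%, and in 3.99% of the 27025 genes with a window (3.44% of the 32851 windows). One stretch per gene is shown, read along the gene's own strand with 20 bases on each side of a match and every matched letter in capitals, because these are the letters that the interferon-activated complex is known to read.
Isg15: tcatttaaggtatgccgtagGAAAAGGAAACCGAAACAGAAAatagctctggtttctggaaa
Bst2: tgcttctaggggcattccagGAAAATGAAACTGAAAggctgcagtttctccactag
Rsad2: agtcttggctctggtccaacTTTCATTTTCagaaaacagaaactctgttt
Ifit3: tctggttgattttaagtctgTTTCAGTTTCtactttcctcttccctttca
Ifit1: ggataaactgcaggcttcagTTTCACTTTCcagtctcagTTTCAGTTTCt
The Isg15 stretch (chr4:156200855-156200916, minus strand) holds 3 overlapping matches from 78 to 57 bases before the start site. In Bst2 (chr8:71537567-71537622, minus strand) 2 overlapping matches lie 130 to 115 bases before it, and in Rsad2 (chr12:26456543-26456592, minus strand) 1 match lies 120 to 111 bases before it. The match shown for Ifit3 (chr19:34583387-34583436, plus strand) lies 122 to 113 bases before the start site, and 1 further match, 156 to 147 bases before it, is not shown. The Ifit1 stretch (chr19:34640765-34640814, plus strand) holds both matches of that window, 104 to 95 and 85 to 76 bases before the start site. Windows of Irf7, Oasl2 and Ifit2 hold none of these letters, which says nothing of the factor. The gamma-activated site TTCNNNGAA, an element of genes that respond to interferon gamma, reads the same on both strands and occurred in Bst2 and Ifit2, against 9.55% of all genes with a window. In Bst2 it spans 136 to 128 bases before the start site and overlaps the response element core.

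No difference between IVCC and Sham kidneys passed the test for any of the 10 antiviral genes. All 10 were expressed at a mean of at least 1 FPKM and entered the test over 12090 genes (limma on log2(FPKM + 1), two-sided). At an adjusted p under 0.05 it called 0 of the 10, and 0 of all genes tested (0%). At an unadjusted p under 0.05, 0 of the 10 were higher in IVCC, against 1.7% of all genes tested, and 0 were lower, against 1.87%. Adjusted p ran from 0.924 to 0.992 over the 10 genes. Over all 6 libraries every fitted log2 fold change of the 10 was above 0, but the sign turned without a single library for Ifit3, Bst2, Ifit1, Irf7 and Rsad2, and after quantile normalization for Ifit3. The fold changes ran from 0.01 for Ifit3 to 0.30 for Isg15, with a median of 0.23; over all genes tested the median was -0.01 and 48.4% lay above 0.

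**Figure D1:**
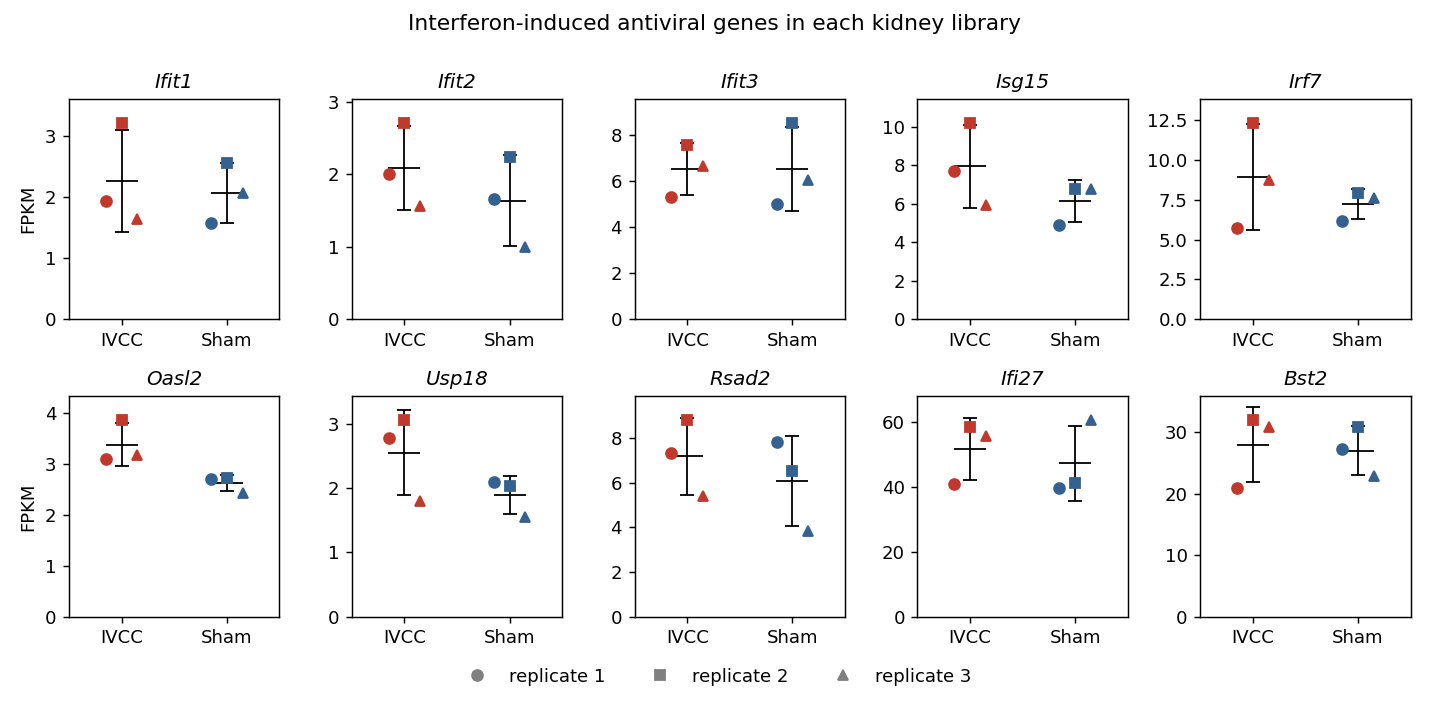
FPKM of each of the 10 genes (vertical axis, from 0) in the IVCC and Sham libraries; points are libraries, with the marker giving the replicate number, and bars the mean and SD of 3. The square of IVCC replicate 2 is the highest of the 6 values for 8 of the 10 genes, and the groups are apart for Oasl2 alone.

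Irf7 (chromosome 7, 141262706 to 141266481, minus strand, GRCm38) is the interferon-induced transcription factor that drives further alpha interferon production. It had 5.70, 12.3 and 8.74 FPKM in IVCC replicates 1 to 3, against 6.16, 7.92 and 7.60 FPKM in Sham replicates 1 to 3. IVCC held both the highest and the lowest of the 6 values, so the Sham range lay wholly inside the IVCC range. Its mean was 8.92 ± 3.31 FPKM in IVCC kidneys and 7.23 ± 0.936 FPKM in Sham kidneys (SD, n = 3 each), and its log2 fold change was 0.22 (standard error 0.24). Without IVCC replicate 2 the fold change was -0.02, and without IVCC replicate 1 it was 0.47 (unadjusted p = 0.0442, adjusted p = 0.999, limma). Irf7 overlaps Phrf1 on the opposite strand, and whether the authors counted by strand is not given in the sources used here.

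Isg15 (chromosome 4, 156199424 to 156200818, minus strand) is a ubiquitin-like protein that is attached to other proteins during the interferon response. Usp18 (chromosome 6, 121245906 to 121270917, plus strand) is the protease that removes it and that also restrains signalling at the receptor. Isg15 had 7.71, 10.2 and 5.93 FPKM in IVCC libraries against 4.92, 6.79 and 6.80 FPKM in Sham libraries. The values overlapped through IVCC replicate 3, which was below 2 of the Sham libraries. Usp18 had 2.78, 3.06 and 1.80 FPKM in IVCC libraries against 2.09, 2.03 and 1.55 FPKM in Sham libraries, again with IVCC replicate 3 inside the Sham range. These were the largest fitted differences of the 10 genes: 0.30 with a standard error of 0.20 for Isg15, and 0.28 with a standard error of 0.18 for Usp18. Without IVCC replicate 3 they were 0.48 and 0.45 (unadjusted p = 0.0402 and 0.0305, adjusted p = 0.552 each, limma), and without IVCC replicate 2 they were 0.13 and 0.18. Isg15 has a transcript of 756 bases and rested on only 19 to 49 nominal reads per library, and Usp18 on 15 to 41. Usp18 overlaps the antisense transcript Gm44148.

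Other parts of the Isg15 conjugation machinery were also expressed. Of 7 such genes tested, Isg15 and Usp18 included, 6 had a higher fitted value in IVCC, against 48.4% of all genes tested. Of the 7, 0 had an unadjusted p under 0.05, and the median log2 fold change was 0.13. Trim25, a ubiquitin ligase linked to the RNA sensor RIG-I, had 13.6, 16.6 and 13.4 FPKM in IVCC libraries, against 13.4, 13.2 and 12.7 FPKM in Sham libraries. IVCC replicates 1 and 2 lay above the Sham values, replicate 1 only just, and IVCC replicate 3 lay inside the Sham range.

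The Ifit proteins bind foreign RNA or one another and restrict the translation of viral RNA. Their genes lie in one cluster on chromosome 19, from 34550694 (start of Ifit2) to 34650009 (end of Ifit1), all on the plus strand of GRCm38. Ifit1 had 1.94, 3.22 and 1.65 FPKM in IVCC libraries against 1.58, 2.55 and 2.07 FPKM in Sham libraries. Ifit2 had 1.999, 2.71 and 1.56 FPKM in IVCC libraries against 1.67, 2.25 and 0.996 FPKM in Sham libraries. In both genes the libraries numbered 2 were the highest of their groups and the ranges overlapped. Ifit3 had 5.32, 7.56 and 6.65 FPKM in IVCC libraries against 4.99, 8.54 and 6.06 FPKM in Sham libraries. Its highest value was in a Sham library, and its mean FPKM was lower in IVCC (6.51 ± 1.13) than in Sham (6.53 ± 1.82), while its fitted log2 fold change was 0.01 (standard error 0.20). Of the stretches of 75 bases in the Ifit3 transcript, 41.1% are identical in other transcripts, chiefly of the neighbouring copy Ifit3b, so its value is uncertain at this read length. Ifit3b itself averaged 2.003 ± 1.07 FPKM in IVCC kidneys and 1.57 ± 0.274 FPKM in Sham kidneys.

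Oasl2 (chromosome 5, 114896936 to 114912234, plus strand), a member of the oligoadenylate synthetase family of RNA-sensing enzymes, was the only one of the 10 whose groups did not overlap. It had 3.09, 3.87 and 3.18 FPKM in IVCC libraries against 2.71, 2.73 and 2.43 FPKM in Sham libraries, a fitted log2 fold change of 0.27 (standard error 0.13, unadjusted p = 0.0754, adjusted p = 0.924, limma). The lowest IVCC value was above the highest Sham value by less than the SD of the IVCC libraries, which was 0.425 FPKM. Across all genes tested, 4.09% had every IVCC value above every Sham value and 4.22% every one below, and 1 gene of 10 is no result against that background. After rescaling to TPM, which gives every library the same sum, the Oasl2 values overlapped.

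The remaining effectors, Rsad2, Bst2 and Ifi27, all had groups that overlapped. Rsad2, or viperin (chromosome 12, 26442746 to 26456452, minus strand), is an enzyme that restricts the replication of many viruses. It had 7.32, 8.81 and 5.39 FPKM in IVCC libraries against 7.81, 6.51 and 3.85 FPKM in Sham libraries. Its wide Sham range came with the widest standard error of the 10 genes, 0.25, around a log2 fold change of 0.23, and without Sham replicate 3 the fold change was -0.02. Bst2, or tetherin (chromosome 8, 71534255 to 71537456, minus strand), holds budding virus at the cell surface. It had 21.0, 32.0 and 30.9 FPKM in IVCC libraries against 27.2, 30.9 and 22.9 FPKM in Sham libraries, and IVCC held both the highest and the lowest value. Ifi27 (chromosome 12, 103434211 to 103440239, plus strand) encodes a small hydrophobic interferon-induced protein. It had 40.9, 58.4 and 55.9 FPKM in IVCC libraries against 39.8, 41.3 and 60.7 FPKM in Sham libraries. Its lowest and highest values were both in Sham libraries, and its log2 fold change was 0.14 (standard error 0.20).

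**Figure D2:**
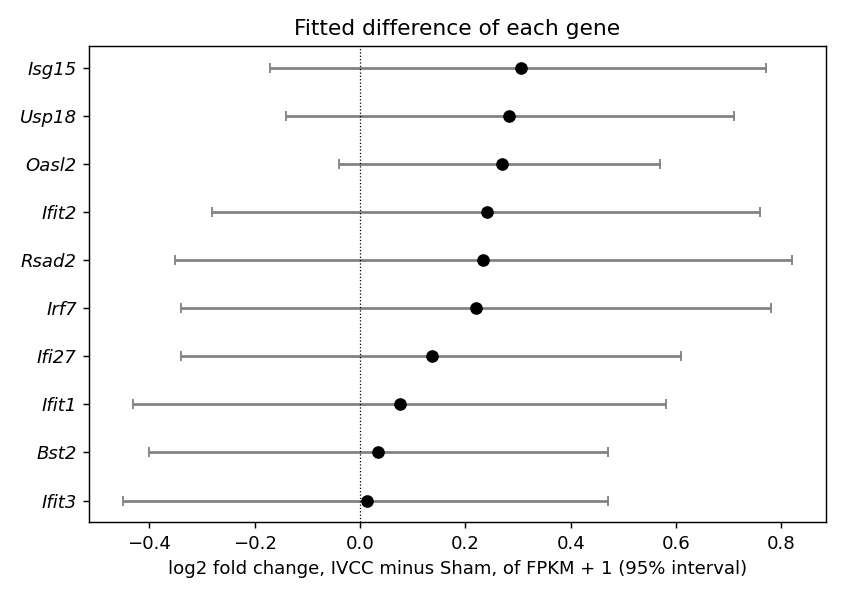
Fitted log2 fold change (IVCC minus Sham, of FPKM + 1, horizontal axis) of each gene, with its 95% interval from limma over 6 libraries. Every interval includes 0; that of Oasl2 runs from -0.04 to 0.57.

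The intervals show what size of difference these 6 libraries leave possible. The 95% interval ran from -0.17 to 0.77 for Isg15, from -0.14 to 0.71 for Usp18, from -0.35 to 0.82 for Rsad2 and from -0.40 to 0.47 for Bst2. On the log2(FPKM + 1) scale no interval reached 1, and the highest upper bound was that of Rsad2. That scale understates the change of low genes such as Ifit2.

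FPKM are per length, so the levels of different genes can be ordered. Over the 6 libraries Ifi27 was highest at 49.5 ± 9.80 FPKM and Bst2 next at 27.5 ± 4.61 FPKM (SD, n = 6), and the ranges of these 2 genes did not overlap each other or that of any other of the 10. Irf7, Isg15, Rsad2 and Ifit3 followed at 8.07, 7.06, 6.61 and 6.52 FPKM, and neighbours in that order overlapped. Oasl2 averaged 3.002 FPKM, with a highest value of 3.87 FPKM that lay below the lowest value of its neighbour Ifit3, 4.99 FPKM, but just above the lowest value of Rsad2, 3.85 FPKM. Usp18, Ifit1 and Ifit2 averaged 2.22, 2.17 and 1.86 FPKM and their ranges overlapped. Bst2 and Ifi27, the most abundant, varied least in proportion: the highest library was 1.53 and 1.52 times the lowest. For Ifit2, the least abundant, it was 2.72 times the lowest.

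IVCC replicate 2 held the highest of the 6 values for 8 of the 10 genes, all but Ifit3 and Ifi27; among all genes tested it held the highest value for 24.4%. As a mean over the 10 genes of log2(FPKM + 1) minus each gene's own mean, the level was -0.06, 0.37 and -0.03 in IVCC replicates 1 to 3 and -0.16, 0.06 and -0.17 in Sham replicates 1 to 3. IVCC replicates 1 and 3 thus lay between the Sham libraries. Without IVCC replicate 2 the median log2 fold change of the 10 genes was 0.07 in place of 0.23, and 6 of the 10 lay above 0. Oasl2 without it was at 0.19. The summed markers of macrophages and dendritic cells, a source of interferon-induced transcripts, were also at their highest in that library. Single markers differed: Cd68 and Itgax peaked in IVCC replicate 1, C1qb and C1qc in IVCC replicate 3, and Csf1r and Flt3 in Sham libraries. The 12 markers summed to 246, 325 and 307 FPKM in IVCC libraries against 214, 221 and 232 FPKM in Sham libraries. Of the 9 tested, 8 had a higher fitted value in IVCC, against 48.4% of all genes tested. Most of each sum is Cd74, a class II antigen presentation gene that interferon itself induces; the other 11 summed to 96.0, 119 and 113 FPKM in IVCC libraries against 85.6, 86.7 and 90.3 FPKM in Sham libraries. None of the 12 was at 0 in any library. Csf1r, the receptor that defines the macrophage lineage, went the other way, at 10.6, 11.2 and 14.1 FPKM in IVCC libraries against 13.6, 17.4 and 16.3 FPKM in Sham libraries. Siglech, the defining marker of plasmacytoid dendritic cells, the main producers of alpha interferon in blood, stayed at 0.213 FPKM or below in every library. The 4 plasmacytoid markers, of which Bst2 is one, summed to between 24.2 and 37.1 FPKM in IVCC libraries and between 25.8 and 34.6 FPKM in Sham libraries, with Ccr9 at 0 in 1 library. The 10 markers of T and NK cells, the usual sources of interferon gamma, summed to between 4.09 and 6.46 FPKM in IVCC libraries and between 3.62 and 5.54 FPKM in Sham libraries, and 3 of them were at 0 in some library. For 3 other kidney cell types the summed level was likewise higher in every IVCC library than in any Sham library. The 4 podocyte markers summed to 71.3, 89.8 and 49.2 FPKM in IVCC libraries against 41.1, 43.2 and 41.2 FPKM in Sham libraries, and the 6 markers of blood endothelium to 99.3, 106.8 and 94.2 FPKM in IVCC libraries against 91.6, 84.6 and 81.9 FPKM in Sham libraries. Both sums also peaked in IVCC replicate 2. The 5 proximal tubule markers summed to 3237 to 3458 FPKM in IVCC libraries and 2890 to 3146 FPKM in Sham libraries. Most of each proximal tubule sum is Slc34a1. Lrp2, Slc5a2, Cubn and Slc22a6 had groups that overlapped, and Slc22a6 had a lower fitted value in IVCC. The part of all these cell types in the values of the 10 genes was not tested.

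**Figure D3:**
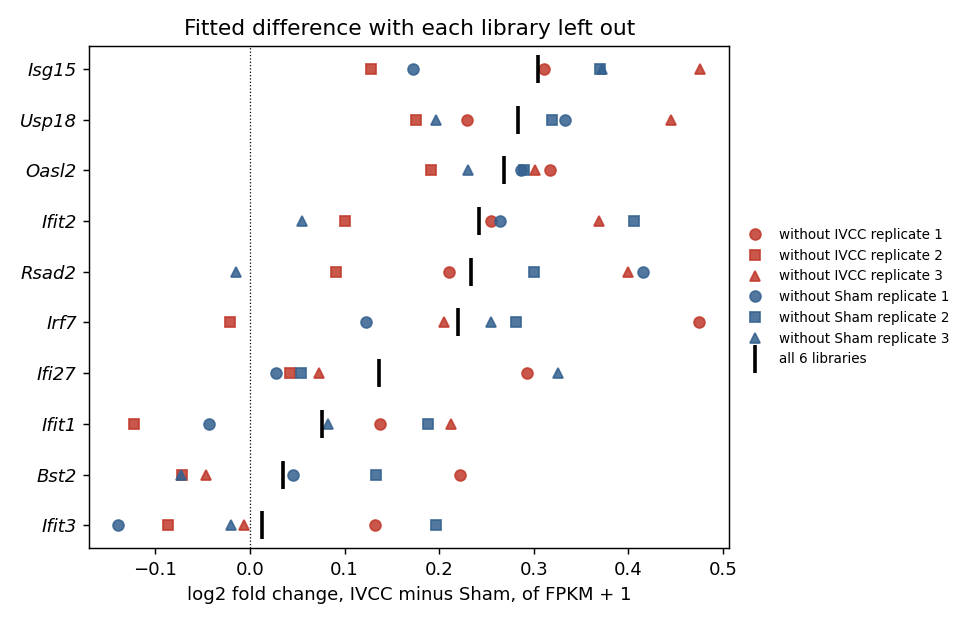
Fitted log2 fold change (IVCC minus Sham, horizontal axis) of each gene over all 6 libraries (black bars) and with each library left out (red symbols, an IVCC library; blue symbols, a Sham library). Without IVCC replicate 2 (red squares) 4 of the 10 genes lie below 0, with Ifit1 at -0.12.

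The interferons themselves were listed at 0 or close to it. Of 27 ligand and receptor genes listed, 19 were listed at 0 in every library, among them Ifnb1 and all 13 numbered alpha interferon genes in the list. Ifng, which encodes interferon gamma, was listed above 0 in 1 library, IVCC replicate 2, at 0.117 FPKM, where 1 nominal read is worth 0.116 FPKM. Ifnz, another interferon gene of the list, was also above 0 in 1 library, IVCC replicate 1, at 0.096 FPKM. The receptors were present: Ifnar1 averaged 7.06 ± 0.636 FPKM in IVCC kidneys and 6.60 ± 0.383 FPKM in Sham kidneys, and Ifnar2 28.5 ± 4.03 FPKM in IVCC kidneys and 28.6 ± 3.78 FPKM in Sham kidneys. For the interferon gamma receptor, Ifngr1 averaged 20.4 ± 1.78 FPKM in IVCC kidneys and 19.2 ± 2.33 FPKM in Sham kidneys. Its partner Ifngr2 averaged 12.4 ± 0.392 FPKM in IVCC kidneys and 11.1 ± 1.22 FPKM in Sham kidneys. Ifnlr1 and Il10rb, the chains of the lambda interferon receptor, differed widely in level. Ifnlr1 averaged 0.988 ± 0.315 FPKM in IVCC kidneys and 1.13 ± 0.464 FPKM in Sham kidneys, and Il10rb 33.0 ± 1.34 FPKM in IVCC kidneys and 31.0 ± 3.11 FPKM in Sham kidneys. None of these 6 receptor genes had an unadjusted p under 0.05.

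Of 14 tested genes of JAK-STAT signalling and its feedback, 9 had a higher and 5 a lower fitted value in IVCC. The median log2 fold change was 0.08, and 48.4% of all genes tested were higher. Irf1, a transcription factor that interferons induce, had 11.5, 13.3 and 9.08 FPKM in IVCC libraries against 8.23, 8.78 and 5.79 FPKM in Sham libraries. It was the 1 gene of the 14 with an unadjusted p under 0.05 (unadjusted p = 0.0256, adjusted p = 0.924, limma). Of all genes tested, 1.7% were higher at that threshold. Stat3, which carries signals of many cytokines, had 14.4, 14.7 and 11.6 FPKM in IVCC libraries against 11.7, 11.8 and 9.42 FPKM in Sham libraries. Stat2 and Irf9, which belong to the complex that binds the response element, differed by less than their SD. Stat2 averaged 5.33 ± 0.912 FPKM in IVCC kidneys and 5.50 ± 1.16 FPKM in Sham kidneys. Irf9 averaged 8.66 ± 1.49 FPKM in IVCC kidneys and 7.80 ± 1.57 FPKM in Sham kidneys.

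Among 18 tested nucleic acid sensors and adaptors, 13 had a higher and 5 a lower fitted value in IVCC, against 48.4% of all genes that were higher. The median log2 fold change was 0.09. The 1 gene with an unadjusted p under 0.05 had a lower fitted value: Irf5, a transcription factor downstream of Toll-like receptors, had 5.96, 6.36 and 6.99 FPKM in IVCC libraries against 8.51, 10.3 and 8.42 FPKM in Sham libraries (log2 fold change -0.43, standard error 0.12, adjusted p = 0.924, limma). Its groups did not overlap. Of all genes tested, 1.87% were lower at an unadjusted p under 0.05 (limma) and 4.22% had every IVCC value below every Sham value. Ddx58, which encodes the RNA sensor RIG-I, averaged 5.91 ± 1.29 FPKM in IVCC kidneys and 4.87 ± 0.611 FPKM in Sham kidneys. Samhd1, a nuclease that depletes nucleotides, averaged 6.46 ± 0.559 FPKM in IVCC kidneys and 5.47 ± 1.28 FPKM in Sham kidneys.

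A longer list of other interferon-induced antiviral genes was read beside the 10. Of its 49 tested members, 37 had a higher and 12 a lower fitted value in IVCC, with a median log2 fold change of 0.10. Over all genes tested, 48.4% were higher. IVCC replicate 2 held the highest value for 28 of the 49, against 24.4% of all genes tested. At an unadjusted p under 0.05, 1 was higher and 0 were lower, against 1.7% and 1.87% of all genes tested. That 1 gene was Lgals9, a galectin, with 9.42, 10.4 and 8.43 FPKM in IVCC libraries against 7.28, 7.72 and 7.44 FPKM in Sham libraries. Trim30a, an interferon-induced ubiquitin ligase, averaged 2.66 ± 0.537 FPKM in IVCC kidneys and 1.68 ± 0.603 FPKM in Sham kidneys. Apobec3, a cytidine deaminase that restricts retroviruses, averaged 2.51 ± 0.327 FPKM in IVCC kidneys and 1.67 ± 0.598 FPKM in Sham kidneys.

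Genes listed here as responding chiefly to interferon gamma had larger fitted differences in the same libraries. Of 29 listed, 9 averaged below 1 FPKM over the 6 libraries and were not tested. Of the 20 tested, 20 had a higher fitted value in IVCC, against 48.4% of all genes tested. At an unadjusted p under 0.05, 8 of the 20 were higher (1.7% of all genes tested), and 8 had every IVCC value above every Sham value (4.09% of all genes tested). Cxcl9 and Tgtp2, which are in each of these counts, averaged 0.905 and 0.626 FPKM in Sham kidneys. They passed the filter of 1 FPKM only through their IVCC values, so their place in the counts depends on the group where they are high. The median log2 fold change was 0.54, against 0.23 for the 10 antiviral genes. None passed the adjustment over all genes. Cxcl10, a chemokine for T cells that either type of interferon can induce, had 6.22, 11.5 and 7.28 FPKM in IVCC libraries against 3.34, 2.93 and 1.82 FPKM in Sham libraries. Cxcl9, its relative that depends on interferon gamma, had 2.46, 3.33 and 2.61 FPKM in IVCC libraries against 1.42, 0.817 and 0.480 FPKM in Sham libraries. Igtp, a GTPase of defence against intracellular pathogens, had 21.9, 28.0 and 15.8 FPKM in IVCC libraries against 14.1, 13.1 and 8.30 FPKM in Sham libraries. Against 24.4% of all genes tested, IVCC replicate 2 was again the highest library for 17 of the 20 genes. Their mean level was 0.20, 0.60 and 0.07 in IVCC replicates 1 to 3 and -0.16, -0.03 and -0.68 in Sham replicates 1 to 3, so the groups were apart here without IVCC replicate 2, and Sham replicate 3 stood lowest. The lists were chosen with earlier results of these data known, so the difference between them is a description only and was not tested. Nor do the lists separate the types of interferon, since a gene listed here, such as Cxcl10, can answer to either.

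**Figure D4:**
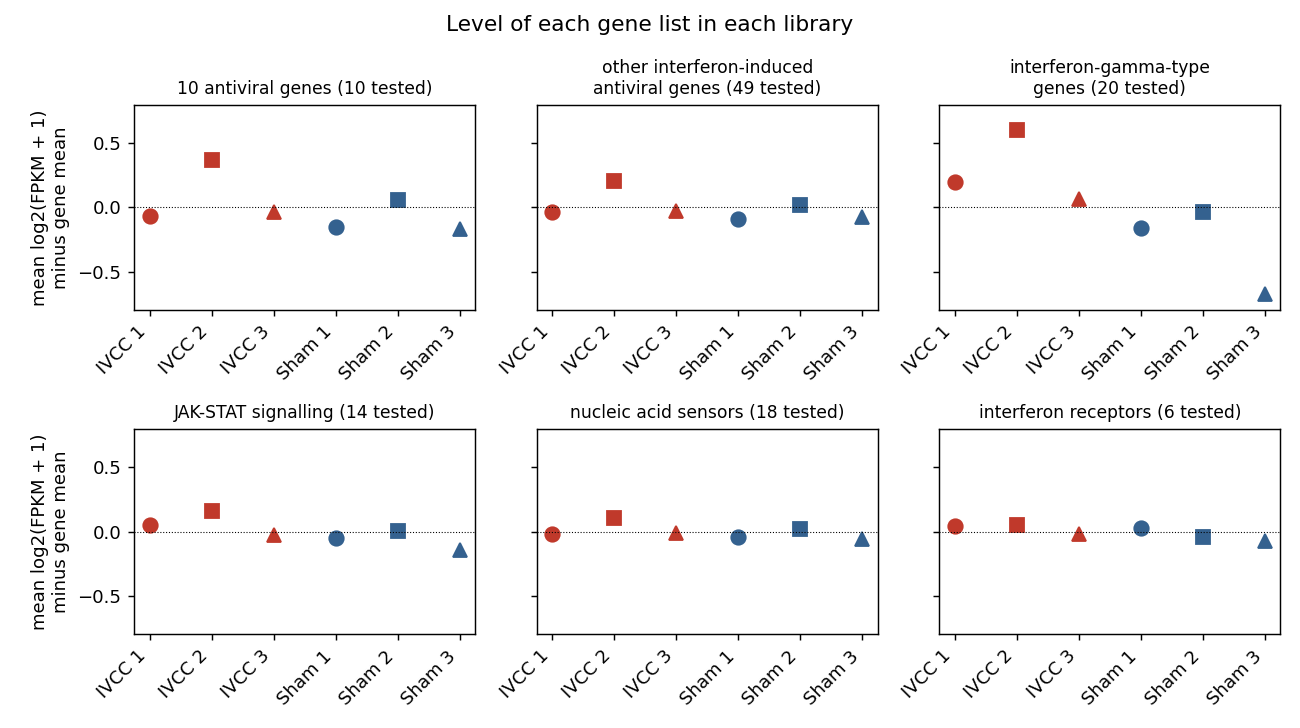
Mean over each list's tested genes of log2(FPKM + 1) minus the gene's mean over the 6 libraries (vertical axis), per library. In the panel of the 10 antiviral genes IVCC replicate 2 stands at 0.37 and the other 5 libraries between -0.17 and 0.06; in the interferon-gamma-type panel the 3 IVCC libraries stand above the 3 Sham libraries.

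Of the genes ranked, those whose values over the 6 libraries were most like the mean profile of the 10 were on none of the interferon lists used here. Predicted Gm genes, Rik genes and small RNA genes were left out of the ranking. By the mean absolute difference in centred log2(FPKM + 1), the 5 nearest were Angpt1, Fam168a, Gtf3c4, Fam126b and Amot, at 0.03 to 0.04. The nearest of the 10 genes themselves was Oasl2, at 0.09, and the farthest Ifi27, at 0.24. The 5 were picked as nearest among the other genes ranked, while the 10 were chosen by symbol, so these distances do not compare the sets. Angpt1, a ligand that stabilises vessels, had 3.73, 5.43 and 3.88 FPKM in IVCC libraries against 3.52, 3.92 and 3.59 FPKM in Sham libraries, so its high value was also in IVCC replicate 2.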

How the data were processed

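Whole-kidney RNA went into a stranded mRNA kit, and reads of 75 bp were sequenced from one end, per the labels' protocols. The authors deposited FPKM in a single table. Cufflinks 2.2.1, SAMtools 0.1.19, Bowtie2 2.2.3, TopHat2 2.0.13 and mm10 stand in the submitters' processing notes; annotation and scaling are not stated there. Of 24346 symbols, 12090 averaged at least 1 FPKM over the 6 libraries. These were transformed to log2(FPKM + 1) and fitted by limma 3.58.1 in R 4.3.3 (eBayes with trend), with Benjamini-Hochberg adjustment over all of them and calls at 0.05. A permutation over 3 and 3 libraries reaches no p below 0.1, so none was run. Nominal reads assume a fragment length of 200 bp and median GENCODE M21 basic transcript lengths. Of the low values, 79.9% to 84.6% per library were whole reads within 0.1, too few for a count test. The depth was chosen to make that share high, so the share is no separate check of the depth. From 65.4% (IVCC replicate 3) to 83.0% (Sham replicate 3) of the low values came to 1 read. The limma fit and the depth estimate were each tested on simulated data. The members and lists were chosen with earlier results of these data known. All members are named, with the 3 genes of smallest p per related list, the receptors, Stat2, Irf9 and the 5 genes nearest in profile; 1 gene that this rule takes is not reported here. Ifit3b was added as the copy that shares reads with Ifit3, and Tgtp2 as a gene that passed the filter through its IVCC values. The interferons and markers were named beside the values they touch. Alternatives were pseudocounts, filters, scalings, eBayes settings, the replicate block and each library left out.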

Additional observations from a re-analysis of the deposited data

How the results depend on the processing

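Of the 10 antiviral genes, 0 were called at an adjusted p under 0.05 in any of the 16 alternatives. Over all genes the count was 0 to 4 with each library left out and 0 otherwise. At an unadjusted p under 0.05 (limma) the main fit had 431 genes, and the alternatives had 214 to 2388. The count of the 10 higher at an unadjusted p under 0.05, which was 0, was 0 to 2 with a library left out; it was 2 without IVCC replicate 3, where 3.79% of all genes did the same, against 1.7% with all libraries. With a replicate block it was 1 (Oasl2, unadjusted p = 0.0488, adjusted p = 0.250, limma), against 6.39% of all genes. The block gave 2388 genes at an unadjusted p under 0.05. Deviations of same-numbered libraries correlated at -0.11, 0.34 and 0.32, and those of other pairs from -0.37 to 0.07. The main fit did not treat the libraries as pairs, because replicates 1 did not correlate positively. Whether the numbers mark a shared structure was not tested. The count with every IVCC value above every Sham value was 1, against 4.09% of all genes tested. With a library left out that count was 1 to 3. Fewer libraries separate more readily, and the share of all genes was not counted there, so the rise cannot be read. The count was 0 with a filter at 5 FPKM, which leaves out Oasl2 and tests 6 of the genes, and 0 after rescaling to TPM. The median log2 fold change of the 10 was 0.07 to 0.29 with a library left out and 0.13 to 0.37 otherwise. TPM moved the median of all genes by 0.16 to 0.15, relative to which the 10 stood at 0.22, and split the genes at an unadjusted p under 0.05 into 276 higher and 85 lower, against 205 and 226 in the FPKM. Of 156 single-gene fold changes, 144 kept their direction. The 12 that turned were Ifit3 at -0.032 after quantile normalization and 11 with a library left out, over which Ifit1 ranged from -0.123 to 0.21, Ifit3 from -0.139 to 0.20, Irf7 from -0.021 to 0.47, Rsad2 from -0.015 to 0.42 and Bst2 from -0.073 to 0.22; the cause was not tested. Depth limits Usp18 and Isg15 most, at 15 and 19 nominal reads in their lowest libraries.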
